A study of Mus musculus with 22 samples.

Results

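A set of 10 secreted ligands of the transforming growth factor beta (TGF-beta) superfamily was followed through sorted cells of the embryonic mouse spinal cord: the TGF-betas Tgfb1, Tgfb2 and Tgfb3, the bone morphogenetic proteins (BMPs) Bmp2, Bmp4, Bmp5, Bmp6 and Bmp7, and the activin subunit genes Inhba and Inhbb. They were taken by gene name and make up 10 of the 55376 genes counted. RNA came from E12.5 mouse embryos, a mid-gestation stage, in which motor neurons carried the ISL1::GFP reporter and endothelial cells, the lining cells of vessels, the Kdr::Cherry reporter. In the knockout series both cell types were sorted from the spinal cord together with its meninges, from wild-type (WT) embryos and from embryos with a knockout of Plxnd1, the gene of the semaphorin receptor plexin D1. In the regional series WT endothelial cells were sorted from the parenchyma of the cord or from the meninges around it, and the cord tissue was ventral cord in batches 1 to 3 and whole cord in batches 4 and 5. There were 3 libraries in each of the 4 groups of the knockout series as deposited and 5 in each regional group, made from embryos pooled by genotype. The labels do not name the Plxnd1 allele or say which cells it was removed from, and they name the sorting reporters for all groups.

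On mm10 the TGF-beta genes were annotated as Tgfb1 at chr7:25687002-25705077 (plus), Tgfb2 at chr1:186622792-186705989 (minus) and Tgfb3 at chr12:86056745-86079041 (minus), with the strand in brackets. The BMP genes were Bmp2 at chr2:133552159-133562885 (plus), Bmp4 at chr14:46383520-46390669 (minus), Bmp5 at chr9:75775364-75900310 (plus), Bmp6 at chr13:38345107-38500302 (plus) and Bmp7 at chr2:172868012-172940321 (minus), and the activin genes Inhba at chr13:16011851-16031621 (plus) and Inhbb at chr1:119415465-119422248 (minus). Reads were counted over all exons of each gene, untranslated parts included where annotated, over 2064 bases for the shortest exon set (Bmp4) and 6390 for the longest (Inhba).

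The ligands are made as precursors and act outside the cell as dimers. A dimer brings together type I and type II receptor kinases, which phosphorylate SMAD proteins: TGF-betas and activins act mainly through SMAD2 and SMAD3, BMPs through SMAD1, SMAD5 and SMAD9. TGF-betas are secreted in a latent complex that integrins can open, and BMPs are held by secreted antagonists such as noggin and chordin. In vessels, endothelial cells respond through the receptor ALK1, made from Acvrl1, and its co-receptor endoglin, made from Eng, and BMP7 is known as a product of the embryonic meninges.

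The regional comparison divided these ligands, so the start-site flanks of 2 ligands higher in the cord, Tgfb1 and Inhbb, are shown beside those of 2 higher in the meninges, Bmp4 and Bmp6, together with that of Inhba, the ligand with the largest difference in the Plxnd1 knockout. Each is the 250 bases before the gene's start in RefSeq on GRCm38.p6, 5′ to 3′ on the gene's strand, at chr7:25686752-25687001 (plus strand) for Tgfb1, chr1:119422249-119422498 (minus) for Inhbb, chr14:46390670-46390919 (minus) for Bmp4, chr13:38345466-38345715 (plus) for Bmp6 and chr13:16011601-16011850 (plus) for Inhba. The annotation used for counting starts Bmp6 earlier, at 38345107, so the Bmp6 stretch lies inside the gene as counted. Capitals mark 4 motifs searched on both strands: the TATA box TATAAA, the GC box GGGCGG, the SMAD element CAGAC and the ETS site CCGGAA.
Tgfb1: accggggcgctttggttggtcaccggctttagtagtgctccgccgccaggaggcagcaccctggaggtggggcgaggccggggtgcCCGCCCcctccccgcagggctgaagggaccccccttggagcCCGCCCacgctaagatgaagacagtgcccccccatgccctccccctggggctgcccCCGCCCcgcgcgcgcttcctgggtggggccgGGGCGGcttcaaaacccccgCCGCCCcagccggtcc
Inhbb: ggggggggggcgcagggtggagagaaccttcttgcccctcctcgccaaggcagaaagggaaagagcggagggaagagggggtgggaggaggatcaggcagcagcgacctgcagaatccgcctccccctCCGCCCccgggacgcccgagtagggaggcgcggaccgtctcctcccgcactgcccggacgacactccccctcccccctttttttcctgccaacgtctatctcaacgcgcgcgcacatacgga
Bmp4: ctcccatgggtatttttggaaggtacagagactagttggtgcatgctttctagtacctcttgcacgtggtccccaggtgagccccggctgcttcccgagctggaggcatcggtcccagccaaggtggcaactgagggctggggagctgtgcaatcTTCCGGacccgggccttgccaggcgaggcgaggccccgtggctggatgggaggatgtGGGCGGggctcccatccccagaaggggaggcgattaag
Bmp6: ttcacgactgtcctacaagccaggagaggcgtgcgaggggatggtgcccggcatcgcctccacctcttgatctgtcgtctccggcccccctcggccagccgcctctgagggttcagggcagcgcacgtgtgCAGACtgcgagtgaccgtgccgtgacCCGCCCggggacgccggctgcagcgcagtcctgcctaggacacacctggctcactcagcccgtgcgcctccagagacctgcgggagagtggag
Inhba: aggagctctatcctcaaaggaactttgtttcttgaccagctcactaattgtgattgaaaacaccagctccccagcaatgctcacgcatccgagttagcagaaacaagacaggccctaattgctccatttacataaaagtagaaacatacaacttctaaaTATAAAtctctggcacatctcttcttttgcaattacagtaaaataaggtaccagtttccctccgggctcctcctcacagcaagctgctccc
The stretches differ in base composition: 75.2% of bases were G or C before Tgfb1, 68.8% before Bmp6, 68.0% before Inhbb, 63.2% before Bmp4 and 43.2% before Inhba, against a median of 52.4% over 32841 promoter stretches of this length. Tgfb1 held 5 GC boxes, and Inhbb, Bmp4 and Bmp6 held 1 each, Bmp4 beside 1 ETS site and Bmp6 beside 1 SMAD element. Inhba held the TATA box letters, 91 to 86 bases before the start, and none of the other motifs. Of all promoter stretches, 32.75% held a GC box, 12.37% the TATA box, 42.21% the SMAD element and 12.03% the ETS site. Promoters were matched for 7 of the 10 ligands. The other 2 matched, Bmp5 and Tgfb2, held no GC box. Bmp5 held 1 SMAD element, and Tgfb2 held 2 and the TATA box letters, 31 to 26 bases before the start. These are matches of letters, and their function was not tested.

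A library was left out before any comparison. The file labelled WT endothelial batch 2 holds the same count as knockout endothelial batch 1 in every gene, and its header names that library, so WT endothelial cells had n = 2. The other 21 libraries held 20680902 to 27035395 counts where the genotypes were compared and 15685784 to 21493255 where the regions were. Levels below are in CPM, the count of a gene relative to the size of its library after scaling by the trimmed mean of M-values (TMM), and they were not compared between the series, which were counted with different settings. Plxnd1 was at 175 and 213 CPM in WT endothelial libraries and at 15.4 to 28.9 CPM in the knockout, and at 5.14 to 12.1 CPM in WT and 0.645 to 1.78 CPM in knockout motor neurons.

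The endothelial sorts also held much RNA of other cells, which bears on every level below. The 10 endothelial markers, among them Kdr and Pecam1, were all detected and summed to 741 to 1150 CPM in WT endothelial, 488 to 917 CPM in knockout endothelial, 863 to 1837 CPM in meningeal and 1656 to 3812 CPM in spinal libraries. The 10 markers of meningeal and mesenchymal cells, among them Col1a1 and Foxc1, were also all detected and summed to 15006 to 15118, 14657 to 17438, 14715 to 20929 and 1331 to 2616 CPM in the same groups. The 6 erythroid markers summed to 12154.5 to 22398, 10037 to 21802.5, 6821 to 52397 and 4255 to 44204.5 CPM in these groups. The 8 motor neuron markers, among them Isl1 and Chat, summed to 520 to 1590 CPM in motor neuron libraries, in which the mesenchymal list summed to 89.9 to 239 CPM. In such bulk samples fewer cells of a type and less RNA per cell cannot be told apart.

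Bmp7 was the most abundant of the 10 transcripts in the endothelial libraries taken with meninges, and Tgfb1 was in those of the cord. Per kilobase of exon, Bmp7 was at 83.7 ± 0.351 CPM (SD, n = 2) in WT endothelial, 82.7 ± 6.16 CPM (n = 3) in knockout endothelial and 69.0 ± 6.78 CPM (n = 5) in meningeal libraries, and in each group its lowest library lay above the highest of the next ligand. It made up 43.7%, 42.0% and 36.3% of the summed level per kilobase of the 10 ligands in these groups. In spinal libraries Tgfb1 led with 59.6 ± 13.6 CPM per kilobase and 65.0% of the sum, and Bmp7 stood at 2.51 ± 2.68 CPM per kilobase and 2.95%. The 10 ligands together reached 192 ± 4.34 (n = 2) and 196 ± 7.98 CPM per kilobase in WT and knockout endothelial libraries and 13.0 ± 3.69 and 16.2 ± 3.32 CPM per kilobase in WT and knockout motor neurons (n = 3 each). In the regional series the sum was 190 ± 13.6 in meningeal and 91.3 ± 13.1 CPM per kilobase in spinal libraries (n = 5 each), so the cord held less of these transcripts in all and a different leading one.

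**Figure D1:**
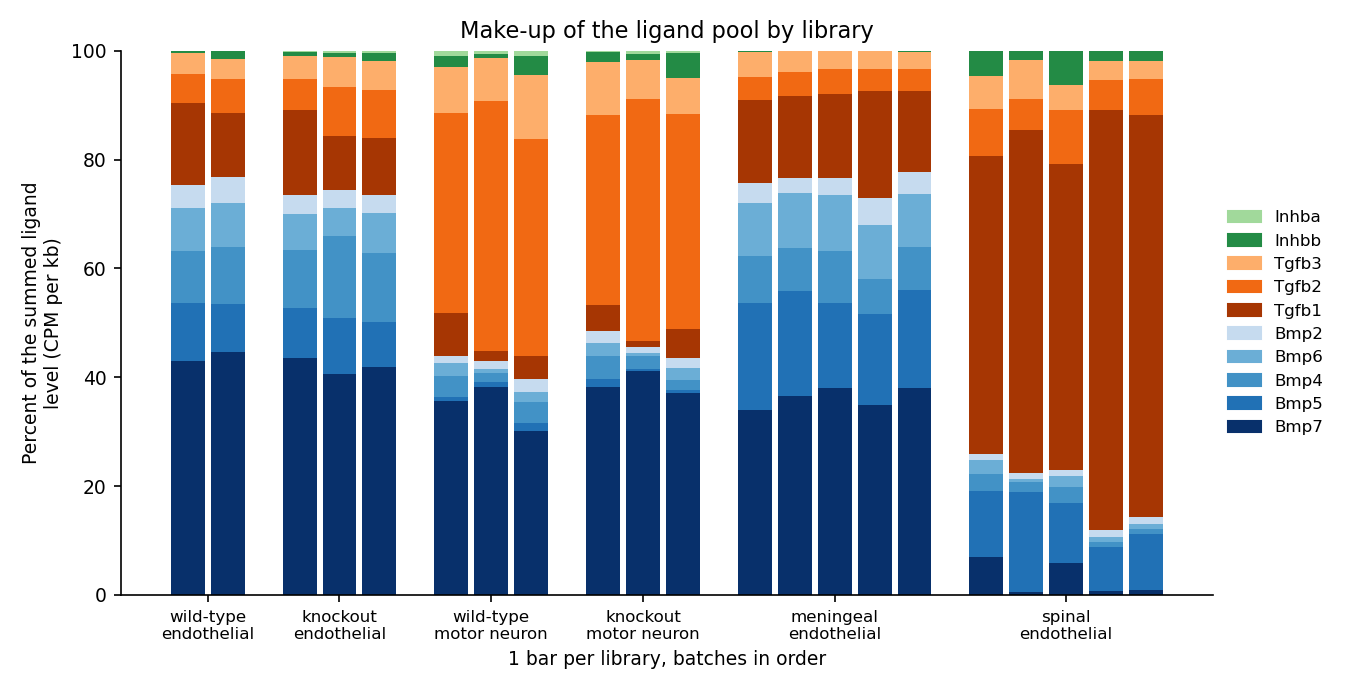
Stacked bars give the percent of the summed level per kilobase (y axis) held by each of the 10 ligands in each library (x axis, grouped by cell type and genotype, batches in order; WT endothelial cells have 2 bars). Bmp7 (dark blue) is the largest segment of every endothelial library taken with or from the meninges, Tgfb2 and Bmp7 share most of the motor neuron pool, and Tgfb1 (dark orange) holds 54.6% to 77.2% of the spinal pool.

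The order of the other ligands was less sharp. After Bmp7, WT endothelial libraries had Tgfb1 at 25.7 ± 5.37, Bmp4 at 19.1 ± 0.79 and Bmp5 at 18.9 ± 2.84 CPM per kilobase, of which Bmp4 and Bmp5 overlapped between libraries. Bmp6 (15.3 ± 0.203), Tgfb2 (11.01 ± 1.02), Bmp2 (8.71 ± 0.707) and Tgfb3 (7.18 ± 0.165 CPM per kilobase) followed without overlap, and the activin genes were last, with Inhbb at 1.73 ± 1.33 and Inhba at 0.162 ± 0.0253 CPM per kilobase. The level of Bmp5 is understated in the knockout series: 1878 of its 3822 exon bases, 49.1%, are shared with Gm26903 on the opposite strand, and counting there ignored strand and had no setting to keep reads that overlap several genes. If all reads over the shared bases were lost, Bmp5 would stand at 37.1 CPM per kilobase in WT endothelial libraries, above Tgfb1. Tgfb2, Tgfb3, Bmp4 and Bmp6 share 2.39% to 7.60% of their exon bases with any single opposite-strand gene. In meningeal libraries Bmp5 (33.9 ± 3.54) and Tgfb1 (30.7 ± 5.23 CPM per kilobase) came after Bmp7 and overlapped each other. In spinal libraries Bmp5 was at 11.3 ± 5.12 and Tgfb2 at 6.46 ± 1.12 CPM per kilobase, and from Bmp5 down to Bmp2 each ligand overlapped the next.

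Motor neurons differed from endothelial cells in which ligands they held as well as in how much. Tgfb2, a ligand known to support the survival of neurons, led with 5.37 ± 1.999 CPM per kilobase in WT and 6.48 ± 1.94 in knockout motor neurons (n = 3 each), followed by Bmp7 with 4.602 ± 1.78 and 6.34 ± 1.63, and these 2 overlapped between libraries. They made up 40.9% and 34.6% of the ligand pool of WT motor neurons. Tgfb3 came next with 1.17 ± 0.115 and 1.28 ± 0.359 CPM per kilobase, below every library's Bmp7. The other 7 ligands averaged between 0.0773 and 0.583 CPM per kilobase in these groups and overlapped their neighbours in the order.

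Of the 10 ligands, 9 were higher in WT endothelial than in WT motor neuron libraries in edgeR's quasi-likelihood test with Benjamini-Hochberg adjustment over 19266 genes, in which 33.8% of all genes were called higher, 31% lower and 64.8% in either direction. The median log2 fold change was 4.75 over the ligands and 0.02 over all genes. The 2 groups did not overlap for any of the 10 ligands, against 79% of all genes, and all were higher in endothelial libraries, where 40.6% of all genes were higher and 38.4% lower without overlap.

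Among the BMPs, Bmp5 was at 64.6 and 79.9 CPM in WT endothelial libraries and at 0.409, 0.528 and 0.544 CPM in WT motor neurons, the largest difference, with a log2 fold change of 7.18 ± 0.33 (SE; edgeR adjusted p = 6.01e-08). Bmp6 was at 54.5 and 55.5 CPM against 0.432, 0.586 and 1.11 CPM, 6.25 ± 0.38 higher on the log2 scale, and Bmp4 at 38.2 and 40.5 CPM against 0.576, 0.712 and 1.06 CPM, 5.63 ± 0.32 higher. Bmp2, close to Bmp4 in sequence and in its receptors, was at 29.2 and 32.7 CPM against 0.655, 0.796 and 0.864 CPM, 5.32 ± 0.23 higher. Bmp7 had the highest BMP level in motor neurons, 10.1, 17.6 and 23.1 CPM against 306 and 308 CPM in endothelial libraries, and so a smaller difference of 4.19 ± 0.30. All 5 BMPs were thus separated by a wide margin, and edgeR's adjusted p was at most 9.4e-07 for each.

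The TGF-betas were less alike. Tgfb1 was at 47.7 and 64.2 CPM in WT endothelial and at 0.672, 0.838 and 2.29 CPM in WT motor neuron libraries, 5.44 ± 0.49 higher on the log2 scale (edgeR adjusted p = 5.07e-06). Without WT motor neuron batch 1, the highest of the 3, the difference was 6.21. That library also held the most macrophage marker RNA (17.2 CPM against 4.27 and 4.73) and endothelial marker RNA (27.8 CPM against 12.2 and 16.3). Its motor neuron markers, at 844 CPM, lay between those of the others (535 and 1311 CPM). The part of other cells in its Tgfb1 level was not tested. Tgfb3 was at 23.9 and 24.7 CPM against 3.60, 3.89 and 4.37 CPM, 2.62 ± 0.21 higher (adjusted p = 2.4e-06). Tgfb2 was nearest in level, at 53.5 and 61.0 CPM against 18.9, 25.6 and 39.3 CPM, 1.04 ± 0.31 higher (adjusted p = 0.012). This call ended without WT endothelial batch 3 (0.94, adjusted p = 0.0656, in a range of 0.000717 to 0.0656 over the alternatives).

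Of the activin genes, Inhbb, which encodes the beta B subunit, was at 3.38 and 11.4 CPM in WT endothelial and at 0.480, 1.06 and 1.38 CPM in WT motor neuron libraries, 2.90 ± 0.63 higher (edgeR adjusted p = 0.0021). It was 1.78 higher without WT endothelial batch 3 and 3.53 without batch 1, and the call held in both. In batches 3 and 1 the 8 neural progenitor markers summed to 673 and 243 CPM, and the endothelial markers to 741 and 1150 CPM. Neural progenitor markers summed to 79.7 to 145 CPM in WT motor neurons. The part of such cells in the Inhbb difference was not tested. Inhba, which encodes the beta A subunit, was low in both cell types, at 0.924 and 1.15 CPM against 0.544, 0.720 and 0.901 CPM, and its difference of 0.52 ± 0.42 did not pass (adjusted p = 0.296).

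In the knockout libraries, which the WT contrast does not compare, all 10 ligands were higher in endothelial cells, where 35.3% of all genes were and 68.8% were called in either direction. The log2 fold changes ran from 1.24 ± 0.28 for Tgfb2 to 7.19 ± 0.32 for Bmp5, and Inhba, at 3.22, 4.82 and 5.15 CPM against 0.290, 0.385 and 0.807 CPM, was 3.14 ± 0.38 higher (edgeR adjusted p = 3.16e-05). Bmp5 was 7.94 higher without knockout motor neuron batch 1. Markers of other cells moved with both contrasts: all 10 mesenchymal markers were higher in WT endothelial libraries (median log2 fold change 6.69), as were all 10 endothelial (5.55), all 7 pericyte (6.60) and all 6 macrophage markers (5.997). Their part in the ligand differences was not tested.

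**Figure D2:**
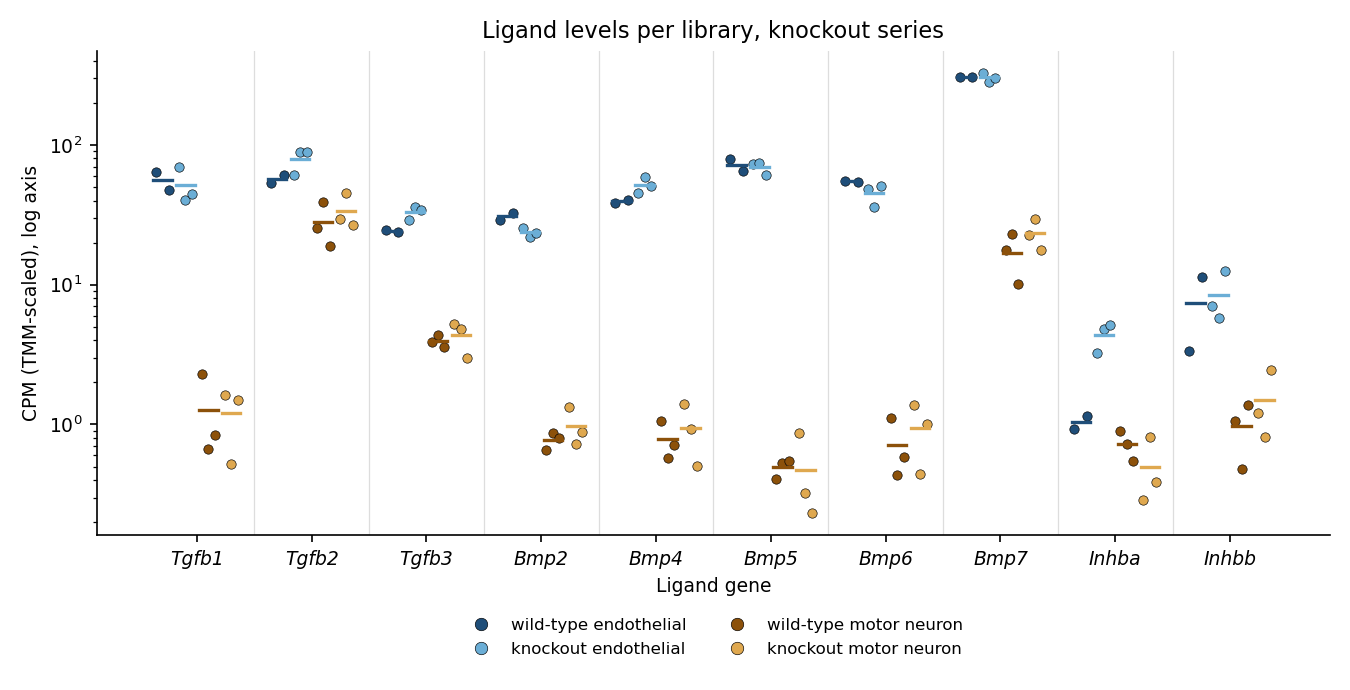
Each point is a library's TMM-scaled CPM (log y axis) for a ligand (x axis) in WT endothelial (dark blue, n = 2), knockout endothelial (light blue, n = 3), WT motor neuron (brown, n = 3) and knockout motor neuron libraries (tan, n = 3), and short lines are group means. The endothelial points lie above the motor neuron points for every ligand, least so for Inhba and Tgfb2, and among endothelial libraries Inhba shows the widest gap between genotypes.

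Between the spinal and meningeal sorts, ligands differed in both directions. Inhbb and Tgfb1 were higher in spinal endothelial libraries, and Bmp2, Bmp4, Bmp5, Bmp6, Bmp7 and, by a small margin, Tgfb2 were higher in meningeal ones. Of the 10 ligands 9 passed the filter on low counts, and of these edgeR called 2 higher and 6 lower in the cord. Over 16213 genes it called 24.8% higher, 23% lower and 47.8% in either direction. The ligands' median log2 fold change was -1.59, against 0.01 over all genes, and the 2 groups did not overlap for 7 of the 10 ligands, against 36.5% of all genes (19.2% higher and 17.3% lower).

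Bmp7 showed the largest difference. It was at 216, 255, 251, 259 and 286 CPM in meningeal batches 1 to 5 and at 23.7, 2.08, 15.3, 2.15 and 2.79 CPM in spinal batches 1 to 5, so that every spinal library lay far below every meningeal one and 2 spinal libraries stood above the other 3. The meningeal mean was 27.6 times the spinal mean, and the log2 fold change was -4.78 ± 0.65 (SE; edgeR adjusted p = 6.05e-05). It was -5.42 with the batches as blocks and -5.48 without spinal batch 1.

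The other BMPs had the same direction in all 5 batches. Bmp6, close to BMP7 in sequence and known in adults as the signal by which liver vessels regulate iron, was at 60.4, 68.5, 66.3, 72.9 and 72.0 CPM in meningeal and at 8.07, 2.02, 5.53, 3.07 and 3.05 CPM in spinal libraries. Its log2 fold change was -3.96 ± 0.31 (adjusted p = 8.04e-07), and the meningeal mean was 15.7 times the spinal mean. Bmp4, a ligand that patterns the dorsal cord, was at 30.9, 31.2, 35.9, 26.9 and 33.0 CPM in meningeal and at 5.96, 4.26, 4.13, 1.76 and 1.55 CPM in spinal libraries. Its log2 fold change was -3.15 ± 0.31 (adjusted p = 5.06e-06), and its lowest values were the 2 whole-cord libraries. Bmp2 was at 22.5, 18.3, 19.2, 35.4 and 29.0 CPM in meningeal and at 3.98, 4.37, 2.83, 4.505 and 4.19 CPM in spinal libraries, a log2 fold change of -2.65 ± 0.21 (adjusted p = 1.08e-06). Bmp5 was the BMP the cord kept most of, at 131, 140, 107, 129 and 141 CPM in meningeal and 43.0, 76.6, 30.6, 28.6 and 36.3 CPM in spinal libraries, a log2 fold change of -1.59 ± 0.24 (adjusted p = 0.000132). The 5 BMPs were thus 3.01 to 27.6 times higher in the meningeal libraries by their means.

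Tgfb1, the TGF-beta best known from vessels, went the other way. Spinal batches 1 to 5 held 110, 149, 87.7, 155 and 147 CPM, and meningeal batches 1 to 5 held 57.9, 62.3, 60.8, 86.3 and 66.8 CPM. The groups did not overlap, though the lowest spinal value (87.7) and the highest meningeal value (86.3) were close. The log2 fold change was 0.96 ± 0.17 (edgeR adjusted p = 0.000471), with the spinal library higher in 5 of 5 batches. Tgfb2 differed little, with 38.0 to 43.3 CPM in meningeal and 26.4 to 41.5 CPM in spinal libraries, which overlapped. Its log2 fold change of -0.32 ± 0.12 passed narrowly (adjusted p = 0.046), and the call ended with the batches as blocks (adjusted p = 0.071), with no filter (0.102) and without any 1 of 7 of the 10 libraries. Tgfb3 overlapped between 19.9 to 26.9 CPM in meningeal and 10.3 to 26.5 CPM in spinal libraries, and its -0.57 ± 0.25 did not pass (adjusted p = 0.0794). It passed with the batches as blocks (-0.67, adjusted p = 0.0176, where 45.2% of all genes passed), in DESeq2 (0.044) and without spinal batch 2 (-0.85, 0.00395), in a range of 0.00395 to 0.129 over the alternatives.

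Inhbb had the largest rise. Spinal batches 1 to 5 held 17.9, 7.98, 18.9, 7.64 and 7.04 CPM, and the meningeal ones 0.803, 0.321, 0.700, 0.661 and 1.12 CPM, so every spinal library was above every meningeal one and batches 1 and 3 were again the highest. The spinal mean was 16.5 times the meningeal mean, and the log2 fold change was 4.02 ± 0.40 (edgeR adjusted p = 4.95e-06). Inhba, the other activin subunit, did not pass the filter, at 0.213 to 0.770 CPM in meningeal and 0.131 to 0.629 CPM in spinal libraries, and these ranges overlap.

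**Figure D3:**
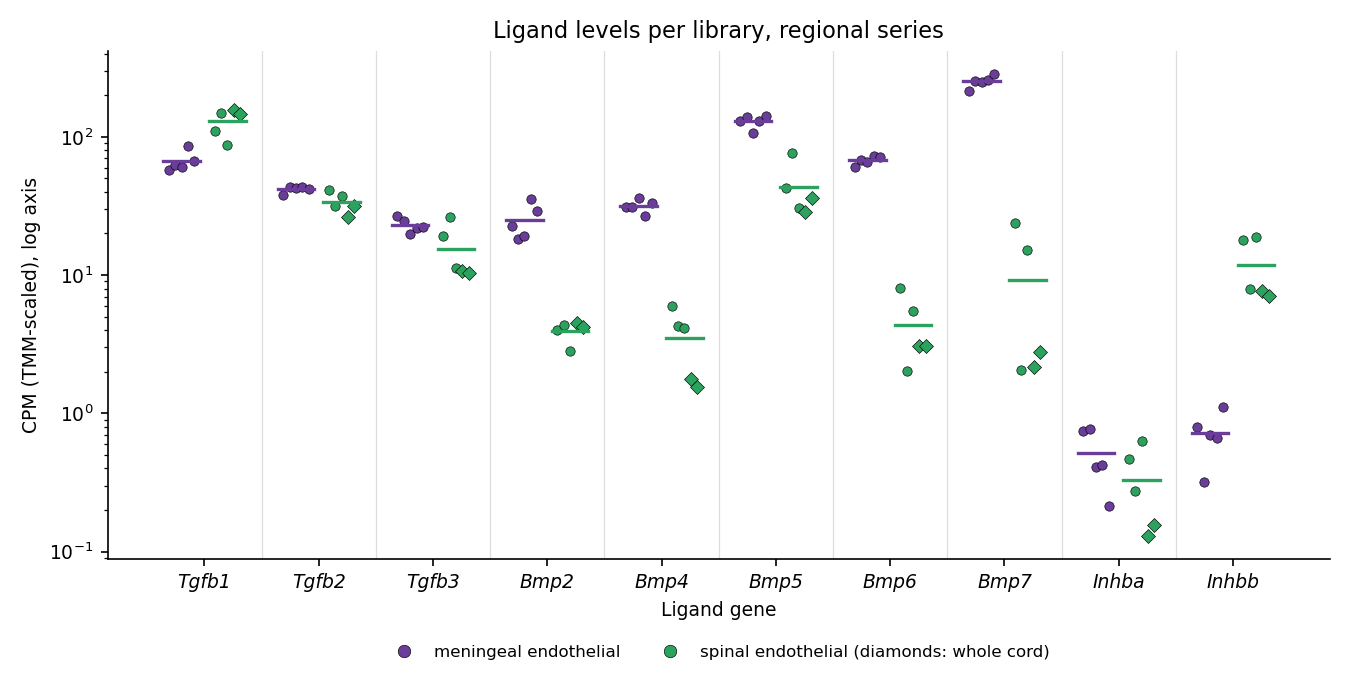
Each point is a library's TMM-scaled CPM (log y axis) for a ligand (x axis) in meningeal (purple, n = 5) and spinal endothelial libraries (green, n = 5; diamonds mark the 2 whole-cord batches), and short lines are group means. The spinal points lie above the meningeal points for Tgfb1 and Inhbb and below them for all 5 BMPs, while Tgfb2, Tgfb3 and Inhba overlap.

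Cell type markers moved between the regions together with the ligands. All 10 mesenchymal markers were lower in spinal libraries (median log2 fold change -3.33), 8 of 10 endothelial markers were higher (median 1.501), 7 of 8 neural progenitor markers were higher (median 5.95), and of 7 pericyte and smooth muscle markers 5 were higher and 2 lower. The pericyte list summed to 1203 to 1618 CPM in the meninges and 3184 to 8541 CPM in the cord, and the neural progenitor list to 108 to 181 CPM and 583 to 1164 CPM, with up to 3 of 8 at 0 in a meningeal library. Their part in the regional differences of the ligands, and of the receptors and other pathway genes below, was not tested.

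Spinal batches 1 and 3 held the most Bmp7, Bmp6 and Inhbb, and several marker lists stood apart in them. The neural progenitor list summed to 1077 and 1164 CPM in these batches against 583 to 625 CPM in the other 3 spinal libraries, and the cartilage list to 316 and 355 CPM against 118 to 132 CPM. The Schwann and neural crest list summed to 38.9 and 37.2 CPM against 13.4 to 18.2 CPM. The erythroid list was lower in batches 1 and 3, at 4255 and 13341 CPM against 31560 to 44204.5 CPM. The mesenchymal list as a whole did not separate them, with 2616 and 1985 CPM in batches 1 and 3, 2212 CPM in batch 2 and 1331 and 1458 CPM in the whole-cord batches. Its genes differed: Lum was at 44.6 and 45.7 CPM in batches 1 and 3 against 0.931 to 1.91 CPM in the other 3, and Pdgfra at 55.9 and 38.3 CPM against 5.55 to 8.19 CPM, whereas Col1a1 was highest in batch 2 (665 CPM) and lowest in batch 3 (352 CPM), as was Foxc1 (118 and 60.8 CPM). Lum and Pdgfra were chosen after their values were seen. The part of these cells in the ligand values of batches 1 and 3 was not tested. Without spinal batches 1 and 3 the same 8 ligands were called in the same directions, where 21.9% of all genes were higher, 19.2% lower and 41.1% called in all, with Bmp7 at -6.77 on the log2 scale (edgeR adjusted p = 1.96e-09), Bmp6 at -4.67, Bmp4 at -3.66, Bmp2 at -2.53, Bmp5 at -1.49 and Tgfb2 at -0.51, and with Tgfb1 at 1.15 and Inhbb at 3.35.

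**Figure D4:**
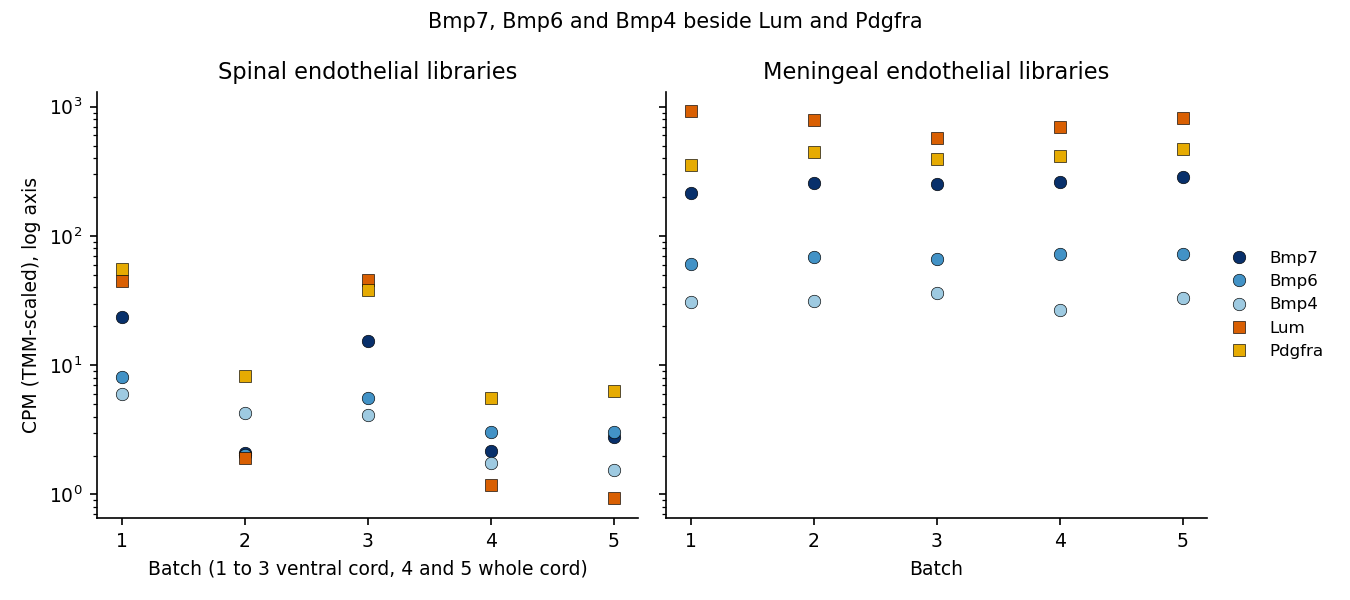
Points give the TMM-scaled CPM (log y axis) of Bmp7, Bmp6 and Bmp4 (circles) and of the mesenchymal genes Lum and Pdgfra (squares) in each batch (x axis) of spinal (left) and meningeal endothelial libraries (right). In spinal libraries Bmp7, Bmp6, Lum and Pdgfra are highest in batches 1 and 3, whereas all 5 genes vary little across the meningeal libraries.

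Ventral cord was used in batches 1 to 3 and whole cord in batches 4 and 5, so the regional difference was also set within each dissection. Tgfb1 was 0.95 ± 0.17 higher in the ventral batches and 0.96 ± 0.21 in the whole-cord batches, and Inhbb 4.59 ± 0.42 and 3.03 ± 0.49. The log2 fold change of Bmp7 was -4.13 ± 0.58 in the ventral and -6.79 ± 0.84 in the whole-cord batches, that of Bmp6 -3.63 ± 0.34 and -4.58 ± 0.45, and that of Bmp4 -2.76 ± 0.18 and -4.19 ± 0.24. Bmp2 had -2.42 ± 0.19 and -2.91 ± 0.24, and Bmp5 -1.32 ± 0.27 and -2.07 ± 0.34. Each of these passed in both dissections (edgeR adjusted p at most 0.00597), and Tgfb2 (-0.58 ± 0.15) and Tgfb3 (-1.09 ± 0.32) passed in the whole-cord batches and not in the ventral ones. Of all genes, 51.5% were called in the ventral batches (26% higher) and 29.1% in the whole-cord batches (15.8% higher). The ventral batches were not alike. Bmp7 differed by -3.18 and -4.03 in batches 1 and 3, by -6.87 in batch 2, and by -6.84 and -6.62 in whole-cord batches 4 and 5. Bmp6 differed by -2.89 and -3.56, by -5.01, and by -4.52 and -4.51. Ventral batch 2 thus lay nearer to the whole-cord batches for these 2 ligands, but not for Bmp2, Bmp4 or Bmp5.

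The test of the difference between the dissections called none of the 10 ligands, and 98 of 17901 genes (0.547%). Bmp4 came nearest, with a difference of 1.43 ± 0.29 (edgeR adjusted p = 0.0539, and 0.000847 to 0.227 over the alternatives), followed by Bmp7 with 2.66 ± 0.92 (0.149). Bmp4 passed in DESeq2, with relative log expression scaling, without spinal batch 2 and without meningeal batch 1. With no filter it passed together with Bmp5, Bmp6, Bmp7 and Inhbb, all higher, where 1780 genes were called, 665 higher and 1115 lower. The number of genes tested in that fit was not recorded, so the share of all genes called is not known. The count of genes called in this test ranged from 0, without spinal batch 4 or 5 or meningeal batch 5, to 1780 with no filter.

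Loss of Plxnd1 left the levels of most ligands in endothelial libraries within 0.5 of WT on the log2 scale, and Inhba differed most. Unpaired edgeR called 0% of 18209 genes (0 genes, and 431 had an unadjusted p below 0.05), and DESeq2 called 34. Plxnd1 itself was thus not called by unpaired edgeR, though it was at 175 and 213 CPM in WT and 15.4 to 28.9 CPM in knockout libraries. A ligand that did not pass this test may therefore still differ. With WT and knockout libraries paired by batch, edgeR called 180 genes, or 0.989%, of which 139 were higher, or 0.763%. Of the 10 ligands, 1 was among them. Only batches 1 and 3 held both genotypes, so the paired fit rests on 2 pairs, with 1 residual degree of freedom.

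Inhba was counted 26 and 32 times in WT endothelial libraries and 81, 134 and 109 times in knockout batches 1, 2 and 3, which is 0.924 and 1.15 CPM against 3.22, 4.82 and 5.15 CPM. Each knockout library thus held more than each WT library, from a low level. The log2 fold change was 2.08 ± 0.32 (SE) in the unpaired test, which did not call it (edgeR adjusted p = 0.842), and 1.99 ± 0.28 with pairing, which did (adjusted p = 0.000257, and 0.000143 to 1 over the alternatives). DESeq2 also called it (2.10, adjusted p = 0.000143), and without any 1 library it remained between 1.94 and 2.26 and uncalled in unpaired edgeR (adjusted p = 1). In motor neurons Inhba differed by -0.54 ± 0.45, and the difference between the cell types, 2.62 ± 0.57, did not pass (unadjusted p = 0.000926, edgeR adjusted p = 1), nor did that of any other ligand or gene (0% of 19266; 352 had an unadjusted p below 0.05, and DESeq2 called 1).

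The other ligands moved by less. Libraries did not overlap between genotypes for Tgfb3, Bmp4 and Inhba, all higher in the knockout, and for Bmp2 and Bmp6, both lower, which is 5 of 10 where 13.8% of all genes did not overlap, with 5.87% higher and 7.98% lower. Tgfb3 was at 23.9 and 24.7 CPM in WT and 29.2, 36.2 and 34.5 CPM in knockout libraries, a difference of 0.46 ± 0.14 (edgeR adjusted p = 0.999). Bmp4 was at 38.2 and 40.5 CPM against 45.01, 58.8 and 51.0 CPM (0.40 ± 0.14), and Bmp2 at 29.2 and 32.7 CPM against 25.6, 21.98 and 23.5 CPM (-0.38 ± 0.13). Bmp6 was at 54.5 and 55.5 CPM against 48.4, 35.9 and 50.7 CPM (-0.29 ± 0.16). None of these passed, unpaired or paired. Bmp7, the leading ligand, was at 306 and 308 CPM in WT and 328, 283 and 299 CPM in knockout libraries, a difference of -0.01 ± 0.10, and Bmp5 differed by -0.05 ± 0.14 and Tgfb1 by -0.12 ± 0.26. Tgfb2 (0.48 ± 0.19) and Inhbb (0.20 ± 0.55) overlapped between genotypes. Beside these values, cartilage markers summed to 266 and 428 CPM in WT and 456 to 651 CPM in knockout libraries, endothelial markers to 741 and 1150 CPM and 488 to 917 CPM, and mesenchymal markers to 15006 and 15118 CPM and 14657 to 17438 CPM. In the paired fit, which rests on 2 batch pairs, all 4 cartilage markers tested were higher in the knockout, and 2 of 10 endothelial markers were lower. Of all genes, 0.763% were called higher and 0.225% lower in this fit. Their part in the differences was not tested.

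In motor neurons the genotypes overlapped for all 10 ligands, where 4.85% of all genes did not overlap, 2.34% being higher and 2.5% lower. None of the 10 was called, where unpaired edgeR called 2 of 16695 genes (0.012%) and DESeq2 called 4, and 190 had an unadjusted p below 0.05. The log2 fold changes ran from -0.54 ± 0.45 for Inhba to 0.60 ± 0.51 for Inhbb. Bmp7 was at 17.6, 23.1 and 10.1 CPM in WT and 22.5, 29.6 and 17.7 CPM in knockout batches 1 to 3, higher in 3 of 3 batches. Its difference was 0.46 ± 0.30 (edgeR adjusted p = 1) and 0.50 ± 0.11 with pairing (adjusted p = 0.332), where 0.0359% of all genes were called and 0.024% were lower. Knockout motor neuron batch 1 held 466 CPM of Alb, a liver gene noticed after its values were seen, against 0.270 and 0.282 CPM in the other 2 knockout libraries. In the paired fit without it 104 of 17010 genes were called (0.611%), 58 higher (0.341%) and 46 lower (0.27%), and Bmp7 was among those higher (0.57, adjusted p = 0.0108, in a range of 0.0108 to 1 over the alternatives). Only batches 2 and 3 then held both genotypes, so this call rests on 2 batch pairs, with 1 residual degree of freedom. Tgfb2, the other main ligand of these cells, was at 25.6, 39.3 and 18.9 CPM in WT and 29.3, 45.3 and 26.5 CPM in knockout libraries, a difference of 0.27 ± 0.29 that did not pass (edgeR adjusted p = 1), and 0.29 ± 0.09 with pairing (adjusted p = 0.613). Tgfb2, Bmp6 and Inhbb were also higher in 3 of 3 batches, and none of them passed in the paired fit (edgeR adjusted p = 0.613 to 0.973).

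**Figure D5:**
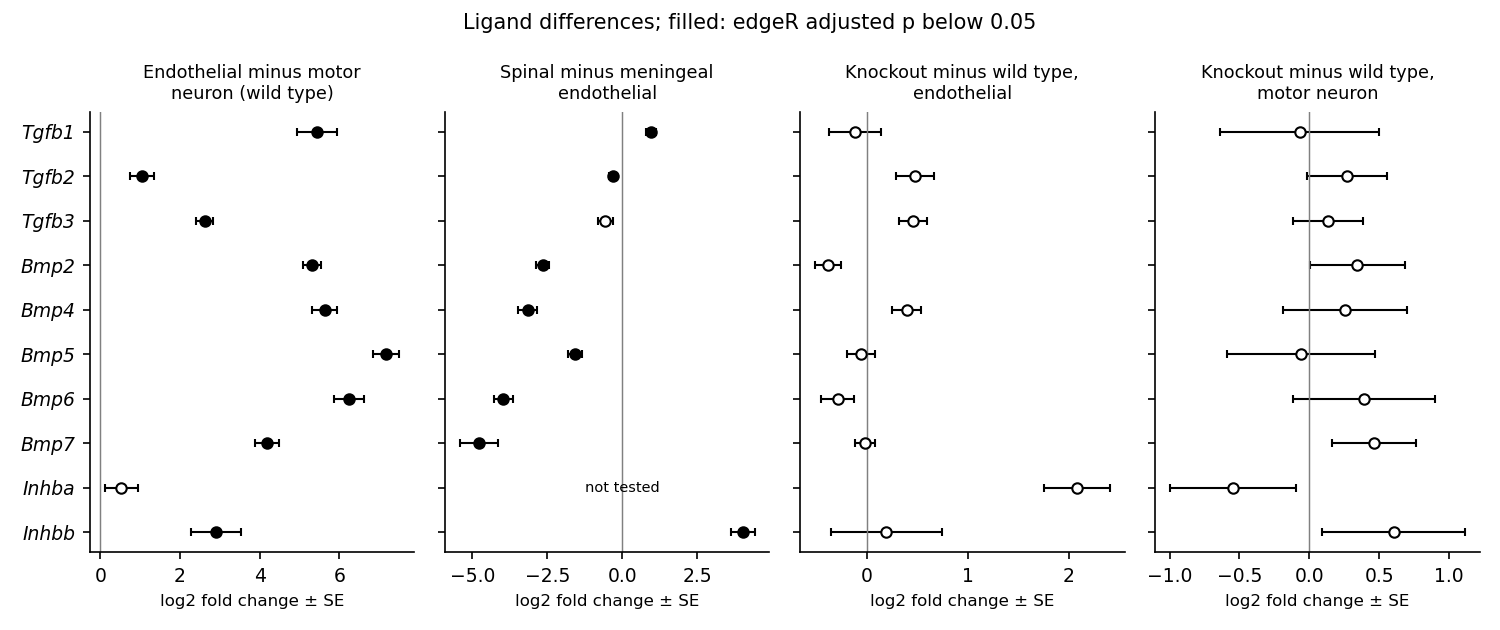
Points give each ligand's log2 fold change with its SE (x axis) in 4 edgeR comparisons, and filled points passed an adjusted p of 0.05. In the first panel 9 of 10 ligands lie to the right and are filled, in the second 2 are filled on the right and 6 on the left, and in the knockout panels none is filled, with Inhba the farthest from 0 in endothelial libraries. The x axes differ between panels.

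Of 13 receptor genes 6 were higher and 3 lower in WT endothelial than in WT motor neuron libraries, a share called close to the 64.8% of all genes, and their median log2 fold change was 0.34 against 0.02 over all genes. Acvrl1, which encodes ALK1, was at 56.8 ± 16.2 CPM (SD, n = 2) against 0.641 ± 0.371 CPM (n = 3), 6.44 ± 0.40 higher on the log2 scale, and the TGF-beta type II receptor Tgfbr2 was at 160 ± 14.5 against 1.96 ± 1.09 CPM, 6.33 ± 0.37 higher (edgeR adjusted p = 3.79e-07 and 2.63e-07). The type III receptor Tgfbr3 (3.66 ± 0.22) and the BMP type I receptor Bmpr1a (1.71 ± 0.12) were higher too. Lower in endothelial cells were the activin receptors Acvr2a, at 63.8 ± 9.01 against 357 ± 24.2 CPM (-2.48 ± 0.19), Acvr1b (-1.82 ± 0.18) and Acvr2b (-1.72 ± 0.23). Of 22 other ligands of the family 12 were tested, and 4 were higher and 2 lower, where 33.8% of all genes were higher and 31% lower. Lower were Gdf11, which uses activin receptors (34.2 ± 5.10 against 91.4 ± 4.71 CPM, -1.42 ± 0.13), and Inha, the inhibin alpha subunit that pairs with the activin beta subunits (-0.78 ± 0.18).

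Between regions, 9 of 12 receptor genes tested were higher and 2 lower in the cord, where 24.8% of all genes were higher and 23% lower, and their median log2 fold change was 0.77 against 0.01 over all genes. Eng was at 356 ± 79.6 against 136 ± 34.7 CPM (1.38 ± 0.20 higher, edgeR adjusted p = 0.000111; n = 5 each), Bmpr1b at 11.3 ± 4.28 against 1.65 ± 0.504 CPM (2.78 ± 0.31) and Tgfbr1 0.91 ± 0.11 higher. Tgfbr3 was lower, at 16.7 ± 5.86 against 85.6 ± 8.05 CPM (-2.36 ± 0.21, adjusted p = 2.53e-06), as was Bmpr1a (-0.55 ± 0.18). Eng is known as an endothelial gene, and endothelial and neural progenitor markers rose in the same libraries, as given above. Their part in the receptor differences was not tested.

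Of 19 secreted antagonists and latency proteins tested, 13 were lower and 6 higher in the cord, against 23% and 24.8% of all genes, with a median log2 fold change of -1.05. Chordin, from Chrd, was at 41.3 ± 9.44 CPM in meningeal and 7.31 ± 3.20 CPM in spinal libraries (-2.49 ± 0.28, edgeR adjusted p = 1.2e-05), Nbl1, a BMP antagonist, had a log2 fold change of -1.93 ± 0.12, and Sostdc1 had -4.37 ± 0.43 at a meningeal level of 1.71 ± 0.347 CPM. Dcn, which encodes a TGF-beta-binding proteoglycan and also stands in the mesenchymal list, had -3.88 ± 0.41. Higher in the cord was Nog, the gene of noggin, at 3.59 ± 1.02 against 0.300 ± 0.116 CPM (3.54 ± 0.33), with Fst, the activin antagonist follistatin (1.29 ± 0.35), and Ltbp4, a latent TGF-beta binding protein (0.82 ± 0.19). In the comparison of WT cell types 14 of the 20 were higher and 3 lower in endothelial libraries, against 33.8% and 31% of all genes, and the lower ones were Crim1 (-2.36 ± 0.16), the BMP antagonist Grem1 (-2.88 ± 0.43) and Bmper (-1.56 ± 0.25).

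Of 12 genes that release TGF-beta or process precursors, 3 were higher and 3 lower in the cord, shares near those of all genes (24.8% and 23%). The integrin subunit Itgb8, which with Itgav forms an integrin that opens latent TGF-beta, had 4.62 ± 0.991 CPM in the meninges and 83.3 ± 46.5 CPM in the cord (4.18 ± 0.39, edgeR adjusted p = 3e-06), and Itgav was 0.92 ± 0.18 higher. Neural progenitor markers were also higher in the cord libraries, as given above, and their part in the Itgb8 difference was not tested. Lower were the proprotein convertase Pcsk5 (-1.42 ± 0.19) and the metalloprotease Tll1 (-1.91 ± 0.30). In the Plxnd1 knockout this list held 2 of the genes called with pairing, where 0.989% of all genes were called and 0.763% were higher, and none unpaired. Thbs1, whose product thrombospondin-1 can activate latent TGF-beta, was at 31.7 ± 4.71 CPM in WT (n = 2) and 89.6 ± 25.8 CPM in knockout endothelial libraries (n = 3). It was 1.44 ± 0.16 higher with pairing (edgeR adjusted p = 7.81e-06), and Itgb8 0.48 ± 0.11 higher (0.0225). These calls rest on the 2 batch pairs named above.

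Of 15 genes known to respond to these signals, 10 were higher and 3 lower in spinal than in meningeal endothelial libraries, against 24.8% and 23% of all genes, with a median log2 fold change of 0.70. Pmepa1, a target of TGF-beta, was at 89.6 ± 9.43 against 32.6 ± 4.84 CPM (1.46 ± 0.12, edgeR adjusted p = 1.25e-06), and the inhibitory Smad7 at 27.7 ± 5.52 against 10.3 ± 1.57 CPM (1.42 ± 0.17). Skil (1.14 ± 0.09) and Id4 (3.54 ± 0.28), which neural progenitors also express, were higher as well. Lower were Atoh8, a BMP target of endothelial cells (-2.56 ± 0.22), the BMP-induced inhibitor Smad6 (-0.92 ± 0.22) and Id3 (-0.48 ± 0.14). Of the 6 signal-carrying SMAD genes Smad1 was 0.40 ± 0.09 higher, and Smad3 (-1.22 ± 0.11) and Smad9 (-1.62 ± 0.37) were lower, a share near the 47.8% of all genes called. Between the WT cell types 8 of the 15 response genes were higher in endothelial libraries and 3 lower, a share called close to the 64.8% of all genes, with Id3 at 182 ± 18.6 against 10.1 ± 2.71 CPM (4.17 ± 0.24) and Id4 at 48.9 ± 27.9 against 258 ± 25.1 CPM (-2.40 ± 0.32).

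As a description, the genes whose log2 levels followed each ligand most closely were ranked by the smaller of the Pearson correlations over the 11 knockout-series and the 10 regional libraries, among 15866 genes that passed in both. Libraries of a group share cell make-up and depth, so these values mainly carry the group differences. Bmp6 was most like F13a1 (0.996) and Cxcl12 (0.995), Bmp4 like Ccn4 (0.994) and Adamtsl5 (0.991), Bmp7 like Tmem132c (0.994) and Adamts2 (0.992), Bmp2 like Pofut2 (0.992) and Emp1 (0.989), and Bmp5 like Add3 (0.990) and Cped1 (0.989). Tgfb1 was most like Rasa3 (0.984) and B3gnt2 (0.983), Tgfb3 like Csgalnact2 (0.967) and Stx17 (0.958), Inhbb like Neurog3 and Dbx2 (0.973 each), and Tgfb2, which was spread most evenly over the groups, like Igfbp5 (0.918) and Slc4a4 (0.913).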

How the data were processed

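The deposited values were raw counts of RNA reads per gene, made by the authors with featureCounts 1.6.4 from exons of GENCODE M22 basic on mm10, per the file headers, after Trimmomatic 0.39 and STAR 2.5.3a, per the submitters' processing notes, which also name DESeq2. The 12 knockout-series files were counted without strand as single reads and the 10 regional files as reverse-stranded pairs, per the file headers, so levels were not compared between the series. Reads with several alignments were not kept.

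Tests were quasi-likelihood F-tests of edgeR 4.0.16 (R 4.3.3) after TMM scaling. Genes were kept by filterByExpr with a minimum count of 10, p-values were adjusted by Benjamini-Hochberg over all genes kept, and 0.05 was the threshold. The genotypes were fitted separately for endothelial libraries (3 residual degrees of freedom) and motor neuron libraries (4). With batch as a block these fits had 1 and 2 residual degrees of freedom. Cell types and their interaction with genotype came from 1 fit of 11 libraries, and the regions from 5 libraries each. Log2 levels used a prior count of 2, and levels between genes were divided by the deposited exon length. Alternatives were DESeq2 1.42.0, relative log expression (RLE) scaling, testing without a filter, batch as a replicate block, leaving out each library, and 2 fits chosen after seeing the data, without spinal batches 1 and 3 and, with the block, without knockout motor neuron batch 1. The models were tested on simulated data first. Depth, from 15685784 to 27035395 counts, limits the precision of genes near 1 CPM, which rest on about 15 to 30 counts.

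Libraries were paired by the labels' batch numbers. The deviations of same-batch libraries from their group means had correlations of 0.397 and 0.468 in the endothelial genotype pairs, 0.271 to 0.318 in the motor neuron pairs, 0.248 and 0.251 between the WT cell types, 0.115 to 0.222 between the knockout cell types and -0.273 to 0.303 in the regional pairs. Libraries of different batches were not compared in this way, so these values cannot settle whether the pairing holds. With n = 2 WT endothelial libraries, the 2 values of a comparison with them are not independent. Nothing says that the pools of a group are from separate litters, so the p-values describe library-to-library spread, which may be technical.

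The members and gene lists were chosen with earlier results of these data known. The text names all 10 ligands, up to the 4 list genes of smallest p in each direction, and the 2 genes most like each ligand. Gene positions and exon overlaps come from the files and the annotation, and promoter stretches from RefSeq.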

Additional observations from a re-analysis of the deposited data

Results flagged for a closer look

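The level of Tgfb2 in meningeal endothelial batch 1, 38.0 CPM, lay apart from the other 4 meningeal libraries, which were at 42.2 to 43.3 CPM: its gap to the nearest, as a share of the group's whole range, was above Dixon's 95% critical value of 0.71 for 5 samples. It was the only one of 20 groups of a ligand's levels flagged in this way, and chance flags about 1 in 20. Without this library the regional difference of Tgfb2 was -0.39 (edgeR adjusted p = 0.0371, in a range of 0.00229 to 0.102 over the alternatives).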

How the results depend on the processing

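Alternative settings left the call and direction of a ligand as reported in 839 comparisons of a ligand under a setting, made the call pass in 18, ended it in 10 and turned the sign in 48. The turned signs were all of differences that had not passed, and the cause was not tested. Counts of genes called for the knockout in endothelial libraries were 2 with no filter, 34 in DESeq2 and 180 with the replicate block, the last 2 with 1 ligand higher, and 0 to 1 without 1 library. In motor neurons the counts were 4 with no filter, 4 in DESeq2, 6 with the replicate block and 104 with the block and without knockout batch 1 (1 ligand higher), and 0 to 1 without 1 library. The interaction gave 1 in DESeq2 and 0 to 1 without 1 library. The test between dissections gave 305 with RLE scaling (49 higher, 1 ligand among them), 1780 with no filter (665 higher, 5 ligands) and 1321 in DESeq2 (362 higher, 1 ligand). Shares of the genes tested were not computed for these settings. Without 1 library it gave 0 to 1190 (0 to 4 ligands), and its count stayed within 1.5 times that reported only without spinal batch 3.

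Turned signs in the endothelial knockout were Bmp7 at 0.00137 with RLE scaling, 0.00136 in DESeq2 and 0.0295 with the replicate block, and Tgfb1 at 0.00966 with the block. Without 1 library Tgfb1 ranged from -0.40 to 0.13, Bmp5 from -0.20 to 0.12, Bmp7 from -0.0727 to 0.0317 and Inhbb from -0.42 to 1.32. In motor neurons, with the block and without knockout batch 1, Tgfb1 was 0.35, Tgfb3 -0.0662 and Bmp2 -0.0427. Without 1 library Tgfb1 ranged from -0.37 to 0.68, Tgfb3 from -0.0258 to 0.35, Bmp4 from -0.14 to 0.56 and Bmp5 from -0.82 to 0.27. In the interaction the block gave Tgfb1 0.15, Tgfb2 -0.00263 and Inhbb 0.0709. Without 1 library Tgfb1 ranged from -0.79 to 0.25, Tgfb2 from -0.12 to 0.47, Bmp4 from -0.17 to 0.55, Bmp5 from -0.33 to 0.76 and Inhbb from -1.04 to 0.71. Between dissections Tgfb1 was 0.0216 with no filter and ranged from -0.25 to 0.13 without 1 library. The paired fit changed no ligand's call other than those of Inhba in the knockout and of Tgfb2 and Tgfb3 between regions. Where leaving out a library left 1 of a group, it was taken to vary like the others.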
